A study of Mus musculus with 6 samples.

Results

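The 56 genes described here act between the G2 phase of the cell cycle and the end of cell division. They were taken by name as a list of known G2/M and mitotic genes, with no threshold on their values, at a time when earlier results of these data were known. All 56 had a row among the 12179 genes of the deposited normalized table, and each gene identifier was then matched to the 27179 genes of the count table. By role they fall into Cdk1 with its cyclins and regulators (10 genes), spindle assembly kinases and spindle factors (11 genes), the chromosomal passenger complex (4 genes), the kinetochore and spindle checkpoint (10 genes), the anaphase-promoting complex pathway with separase and its inhibitor (6 genes), the midzone and cytokinesis (8 genes) and chromosome structure (7 genes).

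A cell enters mitosis when Cdk1 bound to B-type cyclins becomes active. The spindle checkpoint then holds the anaphase-promoting complex in check until every kinetochore is attached to spindle fibres, after which separase cuts cohesin and the cell divides. Many of the genes behind these steps are switched on together late in the cycle, by Foxm1 and by the MuvB and B-Myb proteins, and are held down in resting cells. Long-term hematopoietic stem cells (LT-HSCs), which renew the blood system, are mostly in such a resting state.

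Single-read RNA-Seq was performed on LT-HSCs sorted from bone marrow by their surface markers (CD150+CD48-LSK) from C57BL/6 mice at 8 weeks of age. There were 3 libraries labelled WT and 3 labelled Foxm1 heterozygous (Foxm1 HET), 6 in all, and values are given below in the order of replicates 1, 2 and 3 of each genotype. Titles of the heterozygous libraries name 1 floxed Foxm1 allele without a Cre driver. Elsewhere in the study, mice with 1 floxed allele and no Cre were the controls, and its transplantation methods call them WT. The genotypes used here are those of the labels, which disagree with such a reading of the titles. Whether the WT libraries carried a floxed allele is not stated in the RNA-Seq section. The study used Tie2-Cre, which acts in endothelial and blood cells, and Mx1-Cre. Another section of its methods gives Foxm1 HET as the name of Tie2-Cre mice with a floxed allele, while the RNA-Seq section names no driver. The methods speak of 3 pairs of mice but the labels do not tie a library to a mouse, so the p-values measure the spread between these libraries. In bulk RNA, fewer dividing cells and less RNA per dividing cell cannot be told apart.

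Library totals ran from 14573002 to 25798509 reads, and the smallest, Foxm1 HET 2, stood apart from the others with 4467 genes of at least 10 reads against 5963 to 9894. It also took the lowest TMM factor (the trimmed-mean scaling of library size), 0.453 against 0.757 to 1.67, and held 5 reads of Foxm1. Foxm1 had 1182, 2615 and 2942 reads (WT) against 659, 5 and 742 (Foxm1 HET), counted over the whole gene and not its deleted part alone, with non-overlapping levels, and a fitted log2 fold change of -3.30 ± 2.33 (SE), adjusted p = 0.961 (edgeR's quasi-likelihood test, Benjamini-Hochberg adjusted). Of 14 LT-HSC markers, between 8 and 14 had at least 10 reads in a library. Slamf1, which encodes the CD150 used in the sort, was at 0 in WT 3 and Foxm1 HET 2. It passed 10 reads only in WT 2 (1572) and Foxm1 HET 3 (543). Of the LSK genes, Kit (c-Kit) had at least 10720 reads in every library. Ly6a (Sca-1) had 4, 2 and 2 reads in WT 2, WT 3 and Foxm1 HET 2 and over 10 in the others. Cd48, the gene of the marker selected against, had 221, 6608 and 1 reads (WT) against 1285, 5 and 22 (Foxm1 HET). It is counted below among the multipotent progenitor genes. Neutrophil and monocyte genes such as Mpo and Lyz2 summed to between 3974 and 11146 CPM (reads scaled to a fixed library total) in WT and between 1982 and 8035 in Foxm1 HET, with 7 to 9 of 9 markers detected. Of 7 B cell markers, no library had more than 1 with at least 10 reads, Cd79a and Ebf1 were at 0 in all 6, and the sums were 12.6 to 200 CPM in WT and 0 to 6.68 in Foxm1 HET. Sums overlapped for multipotent progenitor (216 to 1642 against 175 to 819), erythroblast (362 to 1132 against 215 to 650) and mast cell and basophil genes (6.52 to 536 against 0.23 to 57.0), while T and NK cell genes stayed at or below 147 and megakaryocyte genes at or below 7.80 CPM. The part of these other cell types in the results below was not tested.

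Transcripts of the mitotic program were found in every library. At least 10 reads were counted for 48, 39 and 30 of the 56 genes in WT against 53, 26 and 46 in Foxm1 HET. Detection was 39.0 ± 9.0 genes in WT and 41.7 ± 14.0 in Foxm1 HET (mean ± SD, n = 3 each), so the difference was smaller than the spread within either genotype. The libraries came in the same order as for all genes except that WT 1 and Foxm1 HET 3 changed places, and of all genes 28.9%, 25.2% and 21.9% reached 10 reads in WT against 36.4%, 16.4% and 34.7% in Foxm1 HET. All 56 have a row in the normalized table, whose genes are fewer than those counted, so their share is not compared by a test. Scaling all libraries to the smallest total left 48, 38 and 30 genes in WT against 53, 26 and 46 in Foxm1 HET.

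**Figure D1:**
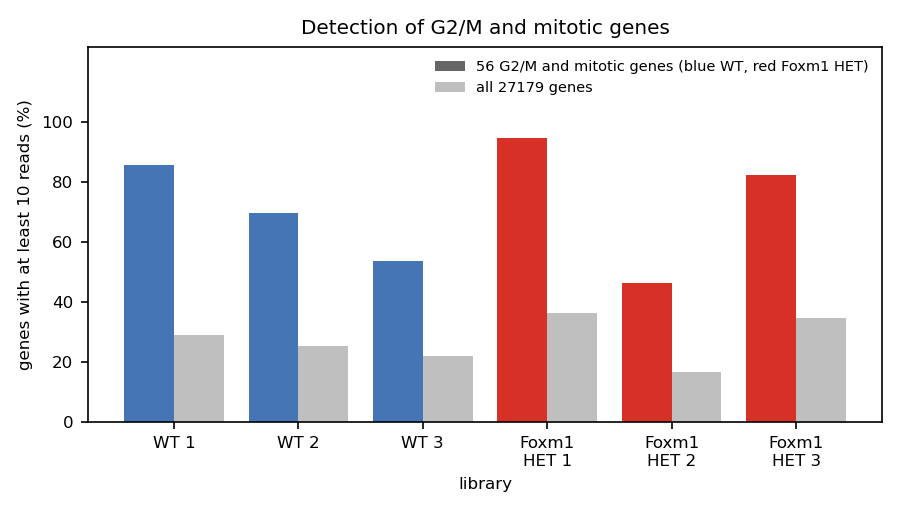
Percent of the 56 G2/M and mitotic genes (colored bars, blue for WT and red for Foxm1 HET) and of all 27179 genes (gray bars) with at least 10 reads in each library. In each library the share of G2/M and mitotic genes is above that of all genes, from 46.4% in Foxm1 HET 2 to 94.6% in Foxm1 HET 1, and both shares are lowest in Foxm1 HET 2.

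Few of the genes were measured evenly. Only 15 had at least 10 reads in all 6 libraries (26.8%, against 19.9% of the 12635 genes that reached 10 reads in some library), 14 more had them in 5 libraries, and none was below 10 reads everywhere. The 15 were Ccna2, Cdca3, Plk1, Plk4, Kif11, Cdca8, Cenpa, Ube2c, Prc1, Racgap1, Top2a, Smc2, Smc4, Ncapd2 and Mki67. The median gene had 54.9% of its CPM, summed over the libraries, in a single library, and 33 of 56 (58.9%) had over 50% there, against 71.5% of the 12635 genes. Which library was highest varied, with 34 genes highest in a WT library and 22 in a Foxm1 HET library by CPM over library totals. The same count was not taken over all genes, so this split is not read as a result about the 56. Ranked across the 56 genes, a pair of libraries of the same genotype (Spearman's rho 0.366 to 0.478) was no closer in range than a pair of different genotype (0.368 to 0.513).

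**Figure D2:**
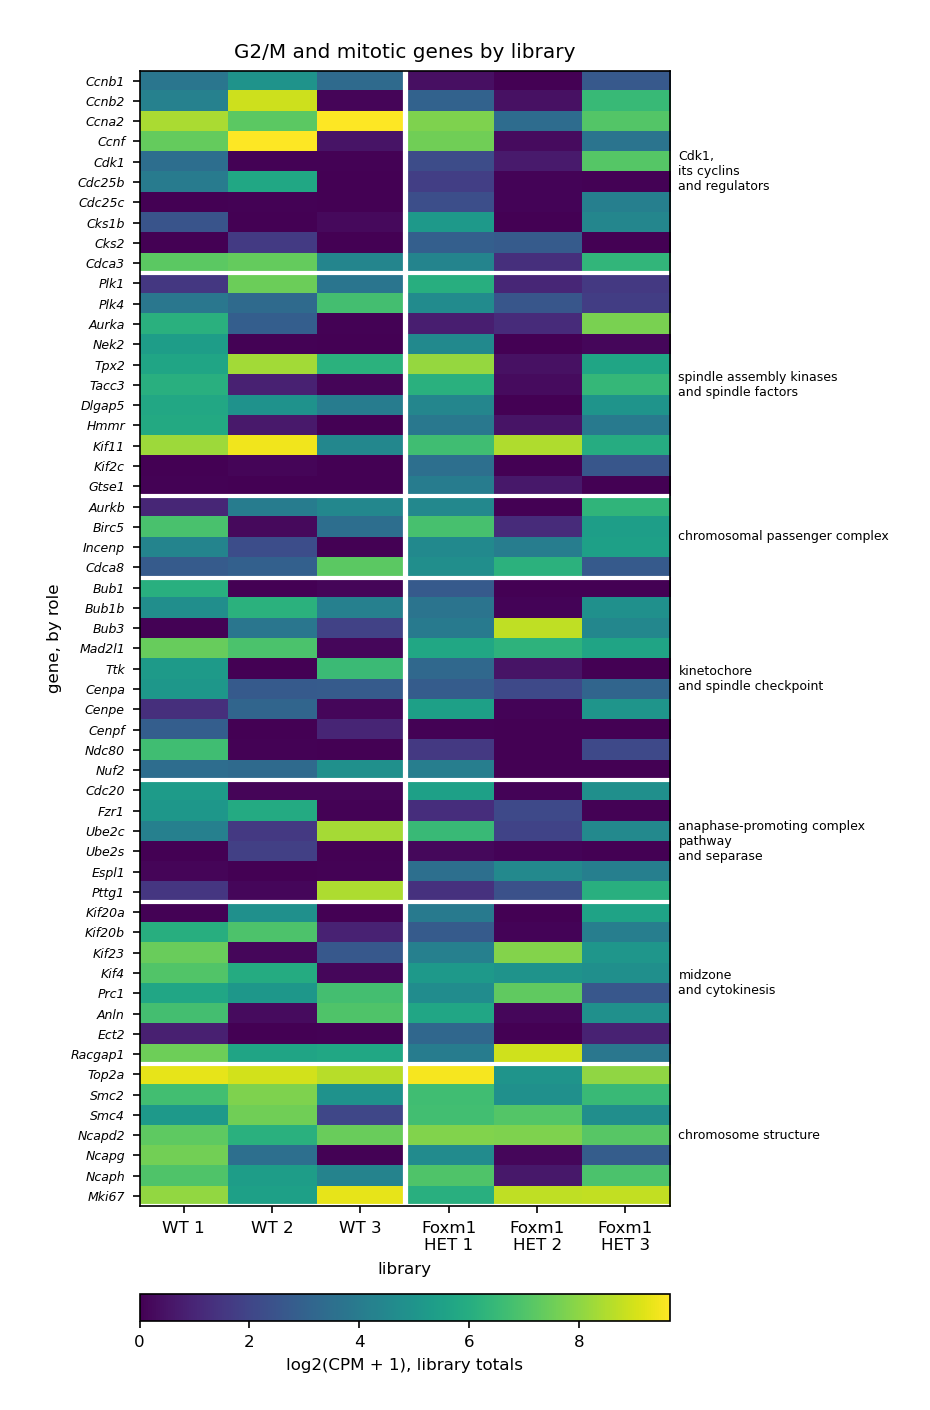
Level of each of the 56 genes in each library, as log2(CPM + 1) with CPM over the library total, with genes in rows by role and libraries in columns. Most genes are bright in some replicates of a genotype and dark in others, and Foxm1 HET 2 is dark for most of the Cdk1 and spindle rows while Bub3, Kif23 and Racgap1 are bright in it.

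Per gene length, the highest mean levels over the 6 libraries were those of the cyclin gene Ccna2 at 207 TPM (reads per gene length, scaled to a fixed total in each library), the topoisomerase gene Top2a at 178, the ubiquitin-conjugating enzyme gene Ube2c at 170 and the B-type cyclin gene Ccnb2 at 150. The lowest was Cenpf at 0.24. These means rested on different libraries: Ccna2 ranged from 141 to 17208 reads and Ccnb2 from 2 to 11063.

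Summed over the 56 genes and divided by library totals, the level was lower in each Foxm1 HET library than in each WT library. The sums were 4271, 4596 and 3588 CPM in WT against 3154, 2752 and 2657 in Foxm1 HET, with means of 4152 ± 514 and 2854 ± 264 (SD, n = 3 each), a ratio of 0.688. The ranges were apart also per gene length (2681 to 3513 against 1806 to 2083 summed TPM) and without the leading gene of each library (3409 ± 542 against 2303 ± 108 CPM). This separation depended on the scaling, since TMM put Foxm1 HET 2 highest of all at 6194 against 3877 to 4829 in WT and 1639 and 2107 in the other Foxm1 HET libraries. With RLE (the median-ratio scaling) Foxm1 HET 2 reached 11751 and the mean of Foxm1 HET was higher than that of WT by 743. Without Foxm1 HET 2, both remaining Foxm1 HET libraries lay below every WT library under each of the 4 scalings.

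**Figure D3:**
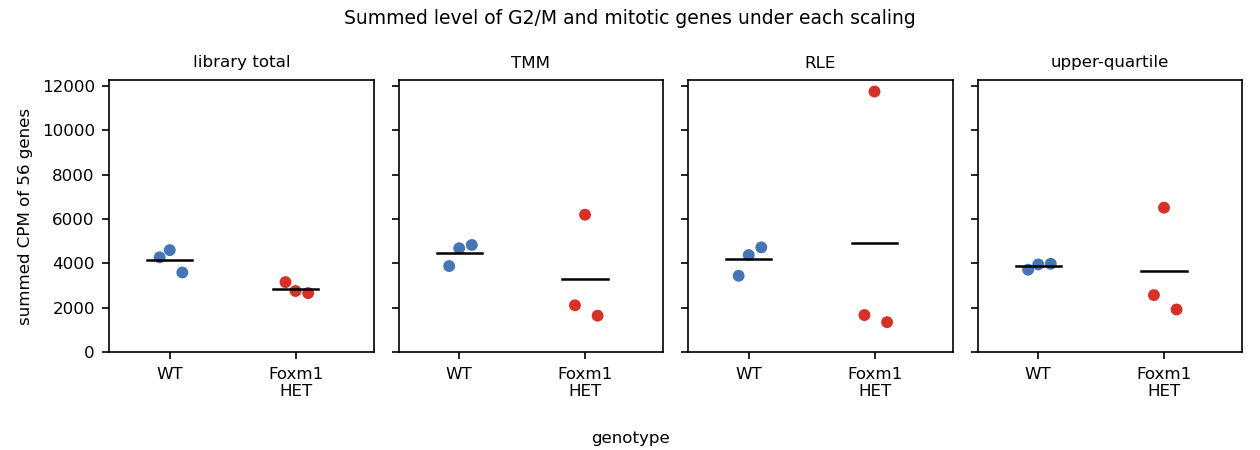
Summed CPM of the 56 genes in each library under 4 scalings (panels), with points for libraries and black lines for the mean of each genotype. Foxm1 HET libraries are all below WT with library totals (2657 to 3154 against 3588 to 4596), whereas under TMM, RLE and upper-quartile scaling Foxm1 HET 2 is above every WT library and the other Foxm1 HET libraries stay below.

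Genes of this program share promoter letters that proteins of the MuvB complex and NF-Y are known to bind, and the sequences are shown because many of the genes, though not all, hold them. RefSeq promoters of GRCm38.p6, from 250 bases before the annotated start to 50 after it, were matched for 48 of the 56 genes (52 windows). The cell cycle homology region, written TTTGAA and searched on both strands, was found in 35 of the 52 windows (67.3%) against 17.9% of all 32851 windows. The CCAAT box (CCAAT, both strands) was found in 40 (76.9%) against 37.4%, and both motifs in 31 (59.6%) against 6.95%. A forkhead core, written TAAACA, was found in 8 (15.4%) against 13.4% of all windows. Matches of different motifs can share at most 1 base, windows of genes with several annotated starts overlap and were each counted, and a match is a description and not a bound site.

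Many matches lay close to the start. Of 91 CCAAT matches, 56 lay within 100 bases before it, and of 46 cell cycle homology region matches, 33 lay within 50 bases on either side. Positions were not taken over the windows of all genes, so this placement is not shown to be particular to these genes. The genes with neither TTTGAA nor CCAAT were Birc5, Mad2l1, Ncaph, Nuf2, Plk4, Pttg1, Tacc3 and Ube2s. The windows of Aurkb, Ccna2, Cdc25c, Dlgap5, Incenp, Kif20a, Smc4 and Tpx2 were not analysed here.

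**Figure D4:**
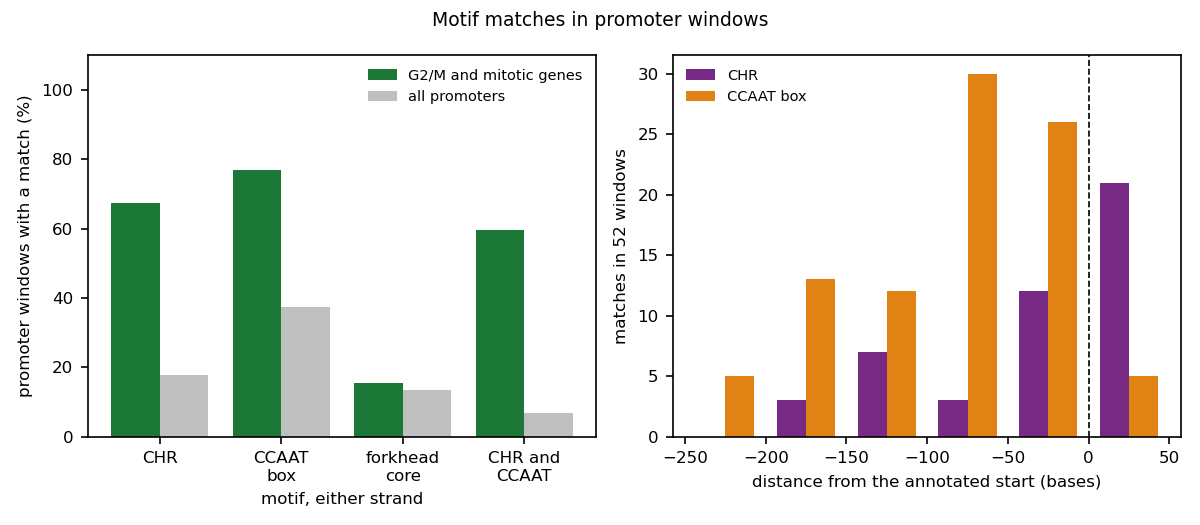
Left, percent of promoter windows with each motif for the G2/M and mitotic genes (green, 52 windows) and for all genes (gray, 32851 windows). Right, number of matches of the cell cycle homology region (CHR, purple) and CCAAT box (orange) in the 52 windows by distance from the annotated start, in steps of 50 bases. CHR and CCAAT shares are above those of all promoters and the forkhead core share is close to it (15.4% against 13.4%), and most CCAAT matches lie just before the start.

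The 150 bases before the start are printed below, 5′ to 3′ in the direction of transcription, for 4 genes whose levels did not overlap between the genotypes or came nearest to the threshold (Ccnb1, Top2a, Espl1 and Bub3) and 4 further regulators of mitosis (Cdk1, Ccnb2, Ccnf and Cdc20), with the letters of TTTGAA and CCAAT, on either strand, in capitals.
Ccnb1 (chr13:100786487-100786636, minus strand): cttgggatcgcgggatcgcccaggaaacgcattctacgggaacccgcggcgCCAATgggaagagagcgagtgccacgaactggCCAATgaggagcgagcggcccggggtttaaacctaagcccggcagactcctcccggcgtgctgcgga
Ccnb2 (chr9:70421555-70421704, minus strand): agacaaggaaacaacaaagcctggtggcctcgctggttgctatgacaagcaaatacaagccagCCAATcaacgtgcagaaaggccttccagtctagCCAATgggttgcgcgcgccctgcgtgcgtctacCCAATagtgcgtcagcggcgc
Cdk1 (chr10:69352913-69353062, minus strand): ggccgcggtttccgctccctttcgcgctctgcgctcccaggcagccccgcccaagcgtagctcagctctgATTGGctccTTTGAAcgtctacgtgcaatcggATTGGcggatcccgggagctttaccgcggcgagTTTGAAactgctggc
Ccnf (chr17:24251410-24251559, minus strand): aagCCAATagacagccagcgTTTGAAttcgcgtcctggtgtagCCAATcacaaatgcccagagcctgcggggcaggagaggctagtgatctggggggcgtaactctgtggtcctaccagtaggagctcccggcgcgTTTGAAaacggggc
Cdc20 (chr4:118437344-118437493, minus strand): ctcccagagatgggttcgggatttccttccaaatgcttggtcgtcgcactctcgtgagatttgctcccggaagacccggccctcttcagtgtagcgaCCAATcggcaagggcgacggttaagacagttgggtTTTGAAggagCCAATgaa
Espl1 (chr15:102296143-102296292, plus strand): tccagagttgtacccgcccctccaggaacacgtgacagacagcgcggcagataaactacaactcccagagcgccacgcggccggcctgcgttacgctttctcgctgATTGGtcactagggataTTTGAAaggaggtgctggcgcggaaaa
Bub3 (chr7:131560220-131560369, plus strand): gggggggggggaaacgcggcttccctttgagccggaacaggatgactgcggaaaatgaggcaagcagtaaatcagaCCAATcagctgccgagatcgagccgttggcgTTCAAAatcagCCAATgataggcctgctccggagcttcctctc
Top2a (chr11:99024190-99024339, minus strand): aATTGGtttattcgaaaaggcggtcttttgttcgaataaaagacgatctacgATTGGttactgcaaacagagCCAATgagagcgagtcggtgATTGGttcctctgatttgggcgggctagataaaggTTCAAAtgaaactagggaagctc
Ccnb1 has CCAAT boxes 99 and 67 bases before the start and no TTTGAA in the window, whereas Cdk1 has TTTGAA 71 and 15 bases before the start. Other spellings of the cell cycle homology region were not searched. In Espl1 a TTTGAA 27 bases before the start follows a CCAAT box at 44, and Top2a holds 6 CCAAT boxes in its window.

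No G2/M or mitotic gene passed the test between the genotypes. Of the 56, 49 passed the filter on low counts and were tested, and with edgeR's quasi-likelihood test (Benjamini-Hochberg adjustment) over 8195 genes 0 were called at 0.05, where 0.329% of all tested genes were. At an unadjusted p under 0.05 there were 2, Bub3 and Espl1, both higher in Foxm1 HET (3.44% of all tested genes were higher and 2.59% lower at that threshold). DESeq2 called 1, Espl1, against 3.13% of the 6195 genes it gave an adjusted p, and limma-voom called 0. DESeq2 gave no adjusted p for several of the 49, among them Bub3, Ccnb2, Cdk1, Kif23 and Racgap1. In the edgeR fit 30 of the 49 were lower and 19 higher in Foxm1 HET, 61.2% lower against 54.6% of all genes tested, and the median log2 fold change was -0.72 against -0.26 over all genes. The median standard error was 2.51 and the biological coefficient of variation over all genes 1.66, so fold changes near the median were within the spread between libraries. The filter left out Cdc25c, Nek2, Kif2c, Gtse1, Bub1, Cenpf and Ube2s, which are described by their reads.

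The median was moved by single libraries, and that over all genes with it. Without Foxm1 HET 2 it was -1.47, with 37 of 54 genes lower, against -0.30 over all genes. Without WT 1 it was 0.14, with 24 of 52 genes lower, against 0.25 over all genes.

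Levels that did not overlap between the genotypes were found for 1 gene higher in Foxm1 HET, Espl1, and 5 lower, Ccnb1, Ccna2, Dlgap5, Bub1b and Top2a (log2 CPM after TMM). That is 2.04% of the 49 against a background of 4.12% of all genes tested, and 10.2% against 4.55%. With library-size scaling only, the higher genes were Bub3 and Espl1 (4.08% against 5.06%) and the lower gene was Ccnb1 (2.04% against 2.90%). With RLE scaling the genes were those of TMM, against 4.10% of all genes higher and 4.73% lower. With upper-quartile scaling Incenp, Bub3 and Espl1 were higher (6.12% against 5.31%) and Ccnb1 lower (2.04% against 3.26%). In the deposited normalized table Cdc25c and Espl1 were higher (3.57% of the 56 against 5.87%) and Ccnb1, Dlgap5, Bub1b, Nuf2 and Kif20b lower (8.93% against 3.77%). Ccnb1 and Espl1 were thus apart under TMM, RLE, upper-quartile and library-size scaling and in the deposited normalized table. These all rest on the same libraries, so they are not separate pieces of evidence. Espl1 passed the filter on low counts through its Foxm1 HET reads alone. Ccnb1 needed its WT reads to pass, since it reached 10 reads in 3 WT libraries and in 1 Foxm1 HET library. Without Foxm1 HET 2, which leaves 2 heterozygous libraries and 54 tested genes, 5 were higher (9.26% against 15.6% of all genes) and 7 lower (13.0% against 6.01%), Ccnb1, Dlgap5, Bub1b, Top2a, Cenpa, Prc1 and Racgap1.

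**Figure D5:**
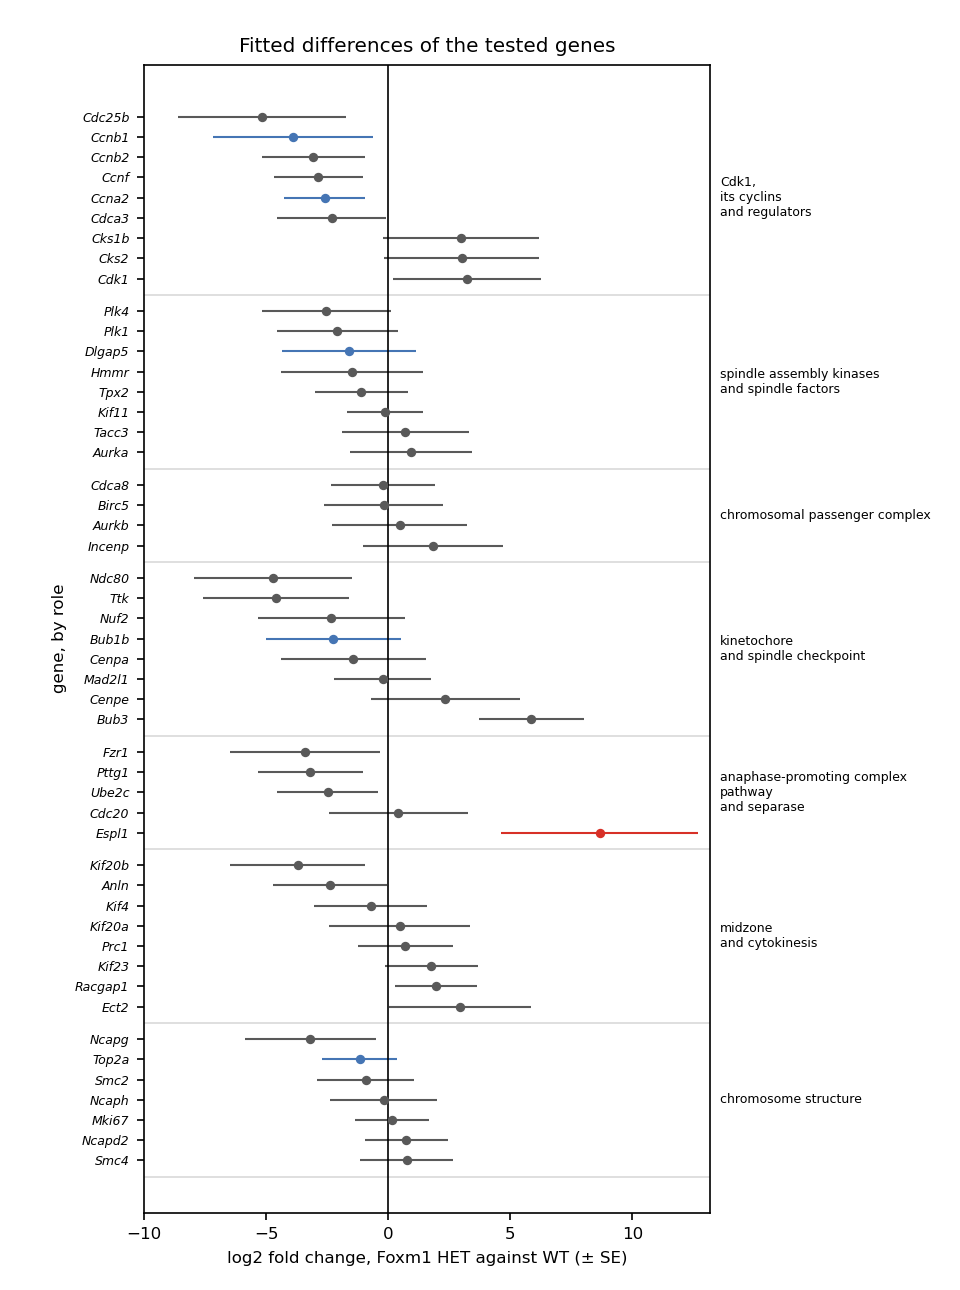
Fitted log2 fold change of the 49 tested genes, Foxm1 HET against WT, with bars of ± SE from edgeR, grouped by role. Red marks the gene whose libraries are all higher in Foxm1 HET (Espl1, 8.66), blue the 5 whose libraries are all lower after TMM (Ccnb1, Ccna2, Dlgap5, Bub1b and Top2a, of which Ccnb1 alone is also apart by library totals), and most bars cross or come near 0.

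Of the 7 role groups, that of Cdk1, its cyclins and its regulators was the only one whose summed CPM, by library totals, did not overlap between the genotypes. Its 10 genes summed to 716, 1677 and 829 CPM in WT against 487, 18.3 and 495 in Foxm1 HET by library totals, and the genotypes did not overlap under TMM, RLE or upper-quartile scaling either. Each sum rested on few genes, Ccna2 in WT 3 and Ccnf and Ccnb2 in WT 2, and without the leading gene of each library the genotypes overlapped (29.7 to 876 against 8.65 to 358 CPM). Of 9 tested, 6 were lower and 3 higher, and the median log2 fold change was -2.60 with a smallest adjusted p of 0.941 (edgeR's quasi-likelihood test, Benjamini-Hochberg adjusted).

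Ccnb1 encodes cyclin B1, the main partner of Cdk1 at entry into mitosis (chr13:100778739-100786486, minus strand, on GRCm38). It had 258, 686 and 195 reads (WT) against 8, 0 and 141 (Foxm1 HET). All WT libraries were above all Foxm1 HET libraries, with log2 CPM of 4.03 ± 0.78 for WT against -1.20 ± 2.75 for Foxm1 HET (mean ± SD, n = 3 each), an exact permutation p of 0.1 (two-sided, the smallest that 3 against 3 libraries allow) and a fitted log2 fold change of -3.90 ± 3.26 (SE). Its fold change was between -7.11 and -3.26 with any library left out. Ccnb1 shares 23.4% of its 50-base stretches with other genes, among them the pseudogene Ccnb1-ps, so some of its reads could come from or go to these copies.

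Ccna2, the cyclin A2 gene (chr3:36564865-36571996, minus strand), had 6860, 3406 and 17208 reads (WT) against 5644, 141 and 3471 (Foxm1 HET). The WT replicates were again all higher, at a log2 CPM of 8.53 ± 1.43 for WT against 6.01 ± 1.42 for Foxm1 HET, with a fold change of -2.60 ± 1.67 on the log2 scale, and by library totals the ranges overlapped. The end of Ccna2 lies over Exosc9 on the opposite strand (13.5% of exon bases), and whether reads were counted by strand is not given in the sources used here.

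Ccnb2, another B-type cyclin gene, had 364, 11063 and 2 reads (WT) against 183, 5 and 2281 (Foxm1 HET). Its fitted value, -3.07 ± 2.11, rested on WT 2 and was 1.23 without that library. Ccnf, whose product is an F-box protein of a ubiquitin ligase, had 3335, 18430 and 9 reads (WT) against 4761, 3 and 313 (Foxm1 HET), which again was dominated by WT 2 and differed by -2.86 ± 1.82 on the log2 scale. Replicates of 1 genotype thus differed by more than the genotypes did.

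Cdk1 itself, the kinase that drives entry into mitosis (chr10:69336635-69352912, minus strand), had 206, 1 and 1 reads (WT) against 96, 9 and 3515 (Foxm1 HET). Foxm1 HET 3 held 90.2% of its CPM, and the fitted log2 fold change of 3.22 ± 3.03 became -0.61 without that library. Cdc25b, a phosphatase that activates Cdk1, had 303, 1209 and 0 reads (WT) against 63, 1 and 1 (Foxm1 HET). Its relative Cdc25c had 0, 1 and 0 reads (WT) against 101, 1 and 439 (Foxm1 HET), and of these 541 reads in Foxm1 HET 439 were from replicate 3. Cdca3, which helps remove an inhibitor of Cdk1, was detected in all 6 libraries with 2958, 3741 and 428 reads (WT) against 492, 21 and 2064 (Foxm1 HET) and a fold change of -2.31 ± 2.23. Cks1b and Cks2, small Cdk-binding proteins, were at fewer than 10 reads in 3 libraries each and share 5.5% and 29.7% of their stretches with other genes.

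Spindle genes spread as widely. Of 11 genes 8 were tested, 6 lower and 2 higher, and the median log2 fold change was -1.29 with a smallest adjusted p of 0.998 (edgeR's quasi-likelihood test, Benjamini-Hochberg adjusted). Dlgap5, which stabilises spindle fibres near chromosomes (chr14:47387779-47418407, minus strand), had 1078, 666 and 333 reads (WT) against 529, 0 and 793 (Foxm1 HET). It was the group's only gene with separate genotypes under TMM, at 4.96 ± 0.62 for WT against 1.48 ± 4.42 for Foxm1 HET on the log2 CPM scale, and its fold change was -1.59 ± 2.74. By library totals Foxm1 HET 1 and 3 lay within the WT range.

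Plk1, the polo kinase that acts on the centrosome and the anaphase-promoting complex, had 40, 4039 and 266 reads (WT) against 1642, 15 and 53 (Foxm1 HET). It was detected in all 6 libraries, WT 2 held 68.2% of its CPM, and its log2 fold change of -2.08 ± 2.47 turned to 0.73 without WT 2. Plk4, the kinase that starts centriole duplication, had 268, 209 and 2335 reads (WT) against 622, 72 and 61 (Foxm1 HET) and differed by -2.53 ± 2.64. Kif11, a motor that pushes spindle poles apart, had 454 to 15880 reads and a fold change of -0.14 ± 1.56. Aurka, the centrosomal Aurora kinase, had 1370, 148 and 1 reads (WT) against 19, 19 and 5382 (Foxm1 HET), with Foxm1 HET 3 far above the rest. Tpx2, which activates Aurka on spindle fibres, had 992, 7299 and 1515 reads (WT) against 7022, 5 and 1292 (Foxm1 HET), and was at or above 992 reads wherever it passed 10. Tacc3, which links spindle fibres to each other, had 1330, 19 and 2 reads (WT) against 1766, 3 and 2203 (Foxm1 HET), and Hmmr, which acts with Tpx2 on the spindle, had 1142, 13 and 0 reads (WT) against 341, 6 and 370 (Foxm1 HET). Both were thus well detected in the same 3 libraries, WT 1, Foxm1 HET 1 and Foxm1 HET 3. The centrosome kinase Nek2, the fibre-shortening motor Kif2c and the fibre-tip protein Gtse1 reached 10 reads in 2, 2 and 1 libraries, and Kif2c and Gtse1 in no WT library.

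The 4 genes of the chromosomal passenger complex, which corrects faulty attachments of chromosomes, all had at least 10 reads in WT 1, Foxm1 HET 1 and Foxm1 HET 3. These were also the libraries where the largest shares of the 56 genes were detected (85.7%, 94.6% and 82.1%). In each other library 3 of the 4 were detected, and the missing gene differed. It was Birc5 in WT 2, Incenp in WT 3 and Aurkb in Foxm1 HET 2. Aurkb, its kinase, had 21, 357 and 451 reads (WT) against 559, 0 and 1999 (Foxm1 HET), and Birc5, also called survivin, had 2322, 4 and 217 reads (WT) against 2875, 19 and 1082 (Foxm1 HET). The group's median log2 fold change was 0.14, and fitted values were 0.48 ± 2.76 for Aurkb and -0.19 ± 2.43 for Birc5, and that of Birc5 changed sign with upper-quartile (0.16) and library-size (0.32) scaling. The scaffold gene Incenp had 395, 90 and 0 reads (WT) against 584, 234 and 1115 (Foxm1 HET), a fold change of 1.84 ± 2.86, and levels in Foxm1 HET that overlapped WT under TMM and not under upper-quartile scaling. Cdca8, the borealin gene, had at least 117 reads in every library.

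Kinetochore and checkpoint genes had fitted values on both sides of 0. Of 10 genes 8 were tested, 6 lower and 2 higher, and the median log2 fold change was -1.83 with a smallest adjusted p of 0.372 (edgeR's quasi-likelihood test, Benjamini-Hochberg adjusted), which was that of Bub3. Bub3, a checkpoint protein that binds unattached kinetochores (chr7:131560391-131571898, plus strand), had 1, 291 and 58 reads (WT) against 362, 6132 and 542 (Foxm1 HET). Foxm1 HET 2 held 89.3% of its CPM, WT 1 was near 0, and WT 2 overlapped the other Foxm1 HET libraries under TMM, though not by library totals. Its log2 fold change of 5.87 ± 2.14 (SE) came with an unadjusted p of 0.00617 in the fit across all genes and with an exact permutation p of 0.2, and ranged from 1.07 to 7.45 with a library left out, being lowest without Foxm1 HET 2.

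Bub1b, which encodes the checkpoint kinase BubR1 (chr2:118598211-118641592, plus strand), was at 1 read in Foxm1 HET 2, where Bub3 was highest. It had 533, 1607 and 379 reads (WT) against 305, 1 and 710 (Foxm1 HET), and its log2 CPM were 5.11 ± 0.91 for WT against 1.68 ± 3.30 for Foxm1 HET, with no overlap after TMM, an overlap by library totals and a fold change of -2.24 ± 2.76. Ttk, the checkpoint kinase Mps1, had 749, 0 and 2045 reads (WT) against 218, 6 and 0 (Foxm1 HET). Mad2l1, the checkpoint's inhibitor of Cdc20, had at least 1091 reads in 5 libraries but 3 reads in WT 3. The checkpoint genes Bub1, Bub1b, Bub3, Mad2l1 and Ttk were all detected only in Foxm1 HET 1.

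Cenpa, the histone that marks the centromere, had 673, 129 and 127 reads (WT) against 153, 49 and 205 (Foxm1 HET), with WT 1 highest and a fold change of -1.42 ± 2.95. Cenpf, a large kinetochore protein made late in the cycle, had 128, 0 and 22 reads (WT) against 1, 0 and 0 (Foxm1 HET). It was at or under 1 read in all Foxm1 HET libraries, so that the ratio of summed reads, each scaled to the summed library totals, WT over Foxm1 HET, was 153 with an exact 95% interval of 27.0 to 6075 for counting error only, and WT 2 was at 0 as well. Cenpe, a motor that carries chromosomes to the spindle's middle, had 30, 182 and 3 reads (WT) against 1101, 1 and 811 (Foxm1 HET) and a fold change of 2.33 ± 3.05. Bub1, a kinase that recruits the other checkpoint proteins, had 1349, 0 and 2 reads (WT) against 144, 0 and 0 (Foxm1 HET), nearly all of them in WT 1. Ndc80 and Nuf2, which form the fibre-binding arm of the kinetochore, were detected together in WT 1 and Foxm1 HET 1, singly in WT 2, WT 3 and Foxm1 HET 3, and neither in Foxm1 HET 2.

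In the anaphase-promoting complex pathway the separase gene was the only tested one whose levels did not overlap between the genotypes under TMM. Among the 49 tested genes it was the 1 that was higher in this way (2.04%, against 4.12% of all genes tested). Of 6 genes 5 were tested, 3 lower and 2 higher, with a median of -2.48 on the log2 scale. Espl1, separase, cuts the cohesin ring at anaphase (chr15:102296293-102324356, plus strand), and had 2, 0 and 1 reads (WT) against 264, 325 and 441 (Foxm1 HET). Every Foxm1 HET library was above every WT library, where the gene was at 0 to 2 reads. The log2 CPM were -2.98 ± 0.56 for WT against 3.96 ± 1.50 for Foxm1 HET (SD, n = 3 each), and the exact permutation p was 0.1. The ratio of summed reads, each scaled to the summed library totals, was 337 (exact 95% interval 115 to 1637, counting error only). Such a ratio was not particular to Espl1. It was 531 for Cdc25c, 401.5 for Gtse1 and 192 for Kif2c, which reached 10 reads in 2, 1 and 2 Foxm1 HET libraries and in no WT library. With edgeR's quasi-likelihood test (Benjamini-Hochberg) the log2 fold change was 8.66 ± 4.02 (SE) with adjusted p = 0.749, while DESeq2 gave 9.61 with adjusted p = 0.000312 (Benjamini-Hochberg). Espl1 passed the filter on low counts through its Foxm1 HET reads alone. In data simulated at the spread of these libraries, most of the genes DESeq2 called were unchanged ones. The changes simulated there were smaller than that of Espl1, so this does not tell whether its call is right. The fold change was between 7.36 and 9.32 with any library left out, and in the deposited normalized table, fitted with limma, the difference was 1.98 on its log2 scale with a Benjamini-Hochberg adjusted p of 0.885. Of its stretches 0.3% occur in other genes.

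Its inhibitor Pttg1, or securin, showed no such pattern with 37, 3 and 7484 reads (WT) against 41, 62 and 1715 (Foxm1 HET). WT 3 held 82.4% of its CPM and the log2 fold change of -3.18 ± 2.16 turned to 4.20 without it. Cdc20, the activator that the checkpoint blocks, had 760, 2 and 2 reads (WT) against 1117, 1 and 698 (Foxm1 HET), that is, at least 698 reads in 3 libraries and at most 2 in the others. Fzr1, the later activator, was not detected in WT 3 and Foxm1 HET 3, at 1 read each. Ube2c, the enzyme that starts ubiquitin chains for the complex, had 345, 46 and 7025 reads (WT) against 2352, 42 and 579 (Foxm1 HET), with WT 3 highest, a fold change of -2.48 ± 2.08, and 16.0% of its stretches shared with other genes. Ube2s reached 10 reads only in WT 2, and 65.8% of its exon bases lie over a gene on the opposite strand.

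Genes of the midzone and cytokinesis had 5 fitted values higher and 3 lower in Foxm1 HET, or 4 and 4 with library-size scaling, and the median log2 fold change was 0.59. Their smallest adjusted p was 0.971 (edgeR's quasi-likelihood test, Benjamini-Hochberg adjusted). Racgap1, a subunit of the centralspindlin complex, had 3659, 1116 and 1128 reads (WT) against 395, 7104 and 337 (Foxm1 HET). Foxm1 HET 2 was highest and the other Foxm1 HET libraries were below every WT library, so that its fold change of 1.97 ± 1.69 was -3.31 without Foxm1 HET 2. Kif23, its partner motor, was high in the same library with 3450, 3 and 115 reads (WT) against 446, 3396 and 833 (Foxm1 HET). Kif20b, a motor of late cytokinesis, had 1307, 2853 and 19 reads (WT) against 148, 1 and 428 (Foxm1 HET) and a fold change of -3.70 ± 2.76. Kif20a, a motor that brings the passenger complex to the midzone, had 1, 636 and 0 reads (WT) against 380, 0 and 1219 (Foxm1 HET), but 33.3% of its exon bases lie over genes on the opposite strand. Kif4, a motor that sets the length of midzone fibres, had 2587, 1395 and 3 reads (WT) against 918, 440 and 700 (Foxm1 HET), and Anln, which scaffolds the contractile ring, had 2181, 5 and 2719 reads (WT) against 1307, 2 and 714 (Foxm1 HET). Their fold changes were -0.72 ± 2.30 and -2.38 ± 2.35, with WT 3 lowest for Kif4 and highest for Anln. Prc1, which bundles midzone fibres, was detected in all 6 libraries with 132 to 2326 reads, and Ect2, which turns on the contractile ring, reached 10 reads in 3.

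Genes of chromosome structure were the most evenly detected, with 7, 7 and 6 of 7 at 10 reads or more in WT against 7, 5 and 7 in Foxm1 HET. All 7 were tested, 4 lower and 3 higher (3 and 4 with upper-quartile scaling), with a median log2 value of -0.18 that was 0.21 with upper-quartile scaling. They made up 23.5% to 43.6% of the summed CPM of the 56 genes. Top2a, which untangles sister chromosomes (chr11:98992947-99024189, minus strand), had 12625, 11760 and 8351 reads (WT) against 18545, 453 and 6856 (Foxm1 HET). Its log2 CPM after TMM were close together in WT, at 9.07 ± 0.08 for WT against 7.47 ± 1.40 for Foxm1 HET, and Foxm1 HET 1, at 8.93, lay just below the lowest WT library at 9.02. By library totals Foxm1 HET 1 was the highest of all. Its fold change was -1.16 ± 1.54.

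Mki67, the Ki-67 proliferation marker, had 5476, 1011 and 13404 reads (WT) against 1717, 6190 and 11308 (Foxm1 HET), and log2 CPM of 7.72 ± 2.12 for WT against 7.83 ± 2.21 for Foxm1 HET that overlapped widely. Its log2 fold change was 0.17 ± 1.51 and changed sign with library-size scaling (-0.0055). The condensin genes Smc2, Smc4, Ncapd2, Ncapg and Ncaph, whose products compact chromosomes, were detected as 5, 5 and 4 of 5 in WT against 5, 3 and 5 in Foxm1 HET. Ncapd2 was the most even of all 56 genes with 1582 to 5661 reads, a fold change of 0.74 ± 1.69, and 22.8% of its CPM in its highest library. Smc2 had 2106, 5043 and 634 reads (WT) against 2613, 409 and 2400 (Foxm1 HET), Smc4 had 732, 4341 and 67 reads (WT) against 2639, 1951 and 671 (Foxm1 HET) and Ncaph had 2539, 923 and 406 reads (WT) against 3225, 8 and 3085 (Foxm1 HET). Each of the 3 overlapped between the genotypes, and their fold changes were -0.92 ± 1.98, 0.75 ± 1.92 and -0.18 ± 2.20. Ncapg was the least even of the complex with 3876, 240 and 1 reads (WT) against 620, 2 and 160 (Foxm1 HET) and a fold change of -3.18 ± 2.68, and it overlaps Lcorl on the opposite strand (20.8% of exon bases).

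A further 122 mitotic genes outside the 56 act in the same steps. At least 10 reads were counted for 96, 78 and 67 in WT against 110, 53 and 91 in Foxm1 HET, and their summed CPM overlapped between the genotypes (8033 ± 1794 and 7641 ± 1047, SD, n = 3 each). Of these, 96 were tested, 45 higher and 51 lower, and the median log2 fold change was -0.20 against -0.26 over all genes. With edgeR's quasi-likelihood test (Benjamini-Hochberg adjustment) 0 passed (smallest adjusted p = 0.0747), and DESeq2 called 3, where 3.13% of all genes were called. At an unadjusted p under 0.05, 4 were higher (4.17% against 3.44% of all genes) and 2 lower (2.08% against 2.59%). Levels did not overlap for Mad1l1, Dsn1 and Clasp2, which were higher in Foxm1 HET (3.12% of the 96 against 4.12% of all genes), and for Anapc16, Hdac8 and Cdc25a, which were lower (3.12% against 4.55%).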

How the data were processed

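RNA-Seq libraries of sorted LT-HSCs, 3 WT and 3 Foxm1 HET, were grouped by the genotype in the labels. The methods give the library kit as Clontech and the labels as a stranded ribosomal depletion kit, single reads, and alignment to GRCm38. The submitters' processing notes name STAR 2.7.2b and limma. The authors deposited raw counts per gene for 27179 genes, with coordinates and gene lengths (which carry no normalization), and a normalized table of 12179 genes whose values are on a log2 scale. The counting program and its use of strand are not given in the sources used here. Gene symbols came from the deposited table and the RefSeq gene table of GRCm38.p6, which named 94.1% of identifiers.

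Counts were fitted with edgeR 4.0.16 in R 4.3.3 over all 8195 genes kept by its default filter, with TMM scaling, the quasi-likelihood test and Benjamini-Hochberg adjustment, called at 0.05. Standard errors were taken from the fold change and the F statistic (log2 fold change over the root of F). Log2 CPM used a prior count of 2, and levels set against each other without TMM were CPM by library total or TPM by the deposited lengths. Detection means at least 10 reads. The exact permutation test was two-sided over libraries, with a smallest p of 0.1. Alternatives were other scalings and filters, a replicate block, each library left out, DESeq2 1.42.0, limma-voom (limma 3.58.1) and limma on the deposited log2 table. The fits were tested on simulated data, in which a part of the genes was changed, up or down, by a single fixed size. That size was smaller than the change fitted for Espl1. The fits recovered the changed genes where the simulated spread between libraries was low. At the spread estimated from these libraries edgeR called no gene changed by that size, and most of the genes DESeq2 called were unchanged ones. A gene that missed the threshold here is therefore not shown to be unchanged. Larger changes were not simulated. Intervals on reads cover counting error only, since PCR duplicates cannot be told apart, and library totals of 14573002 to 25798509 set the depth.

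The members, the 122 further mitotic genes, the markers and the alternatives were chosen with earlier results of these data known. Genes were named as Foxm1, its well known mitotic targets and, in each role, genes with the smallest p or non-overlapping genotypes, and other genes were named from their reads. Columns were matched to samples by name. Promoters are RefSeq windows of 300 bases, and stretches of 50 bases of each gene's exons were searched for in all other genes.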

Additional observations from a re-analysis of the deposited data

How the results depend on the processing

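The count of 0 G2/M and mitotic genes called held in each alternative run except DESeq2, which called 1, Espl1 (log2 fold change 9.61, adjusted p = 0.000312). The number at an unadjusted p under 0.05, 2 as reported, was 5 with DESeq2, 1 with library-size scaling and with limma-voom, 0 with at least 10 counts in every library (15 genes tested) and with the deposited normalized table, and between 1 and 3 with a library left out. Of the 122 further genes, upper-quartile scaling called 1 and DESeq2 3. Non-overlapping genes, 6 as reported, were 6 with RLE, 4 with upper-quartile and 3 with library-size scaling, 7 in the normalized table and 12 without Foxm1 HET replicate 2, where 15.6% of all genes were higher and 6.01% lower. The difference in summed CPM, Foxm1 HET minus WT, was -1297 by library totals, -1149 with TMM, -214 with upper-quartile and 743 with RLE scaling, and between -1579 and -1076 with a library left out. These scalings of the sum, its left-out libraries and the count without Foxm1 HET replicate 2 were chosen after seeing the data. The median log2 fold change was -0.80 to -0.28 under the other tools, filters and scalings and -1.47 to 0.14 with a library left out, in each case below that of all genes, by 0.11 to 1.17. The cause of these changes was not tested.

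Deviations from the genotype means correlated at 0.016, -0.025 and -0.069 for same-numbered libraries, against -0.025 to 0.055 for the others. With 3 libraries per genotype and the wide spread between them, this cannot decide whether the replicate numbers pair the libraries. With the replicate block 1 gene had an unadjusted p under 0.05 and 0 were called.

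Among 352 alternatives over 25 named genes, 315 kept the direction and side of the threshold, 36 reversed and 1 became stronger. None of these genes was called in the main fit, so the side could change only by a gene becoming called. Runs that gave a gene no adjusted p were left out. Birc5 reversed with upper-quartile (0.16) and library-size scaling (0.32), the replicate block (1.35), limma-voom (2.05) and the normalized table (0.86). Mki67 reversed with library-size scaling (-0.0055), at least 10 counts (-0.041), the replicate block (-0.55), limma-voom (-0.34) and the normalized table (-0.060). Racgap1 reversed with the replicate block (-1.98), limma-voom (-2.18) and the normalized table (-1.78), and Ube2c with the same 3 (0.32, 0.092 and 0.32). Pttg1 reversed with limma-voom (0.75) and the normalized table (0.042), and Aurkb with limma-voom (-0.50). With a library left out, log2 fold changes that changed sign ranged from -5.82 to 1.23 for Ccnb2, -0.61 to 9.12 for Cdk1, -5.20 to 0.73 for Plk1, -0.89 to 1.27 for Aurkb, -1.32 to 2.48 for Birc5, -0.29 to 7.24 for Cdc20, -1.20 to 1.51 for Mki67, -4.91 to 4.20 for Pttg1, -3.31 to 2.55 for Racgap1, -4.75 to 0.45 for Ncapg and -3.79 to 1.60 for Ube2c.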
